A study of Mus musculus with 12 samples.

Results

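Growth hormone signals in liver through its receptor, the kinase JAK2 and the transcription factor STAT5, and cytokines of the interleukin-6 family signal through STAT3. Both routes switch on SOCS genes, whose products bind the receptor complexes and damp the same signal. BCL6 is a transcriptional repressor that binds DNA sites resembling those of STAT factors and is lowered by growth hormone in liver. Described here are 7 genes of these routes: the feedback inhibitors Socs2, Cish, Socs1 and Socs3, the repressor Bcl6, the growth hormone receptor Ghr, and Il6ra, which encodes the ligand-binding chain of the interleukin-6 receptor. They were found as all probes with a single gene symbol, current or former, equal to a gene on this list, which gave 7 of 19057 named genes. The list was drawn up from differences already seen in these data, so the values below are descriptions of these genes and carry no p-value. The pathway lists used further on were also chosen with earlier results known. Adjusted p-values printed for their genes reflect the spread between arrays of the same RNA, so these too are descriptions.

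RNA was measured on 12 arrays, 3 in each of 4 groups of adult male C57BL6/J mice. The FF groups came from IkkβF/F mice (Cre-negative) and the Dhep groups from IkkβDhep mice (Cre-positive). The name Dhep stands for deletion of Ikkβ, an NF-κB-activating kinase, in hepatocytes. Each genotype had 1 group of whole fresh liver and 1 of hepatocytes that had just been isolated. RNA was taken directly from both preparations and the labels name no treatment. They give an age of 4-6 weeks, whereas the study's description gives 6-8 weeks. That description counts 4 mice and 4 RNA samples, so each group was treated as 1 mouse and 1 RNA sample hybridised 3 times, and the spread between arrays is technical. Which promoter drives Cre is not stated in the labels, and a difference between groups cannot be told apart from a difference between individual mice.

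The 7 genes have 12 of the 45281 probes of the Illumina mouse bead array, of which 11 exceeded a floor of 6.06 on the log2 scale (66.7 in linear units, the median of all probe means) on every array of at least 1 group, and all 7 genes had such a probe. The probe not kept was the second Socs2 probe (ILMN_1250749), with group means of 5.81 to 5.86. Socs1 passed through 2 groups by a narrow margin. Per-array raw medians ran from 41.0 to 53.8, and the FF hepatocyte arrays were dimmest, with 75th percentiles of 75.5 to 85.7 against 94.7 to 119 elsewhere. After quantile normalization the correlation between arrays of a group was 0.997 or more. All 10 hepatocyte markers were above the floor in every group, with summed signals of 157000 to 178000, although the Alb probe itself read only 7.67 to 8.35 on the log2 scale. Markers of other liver cells were also present in the isolated hepatocytes, and are given with the Bcl6, Il6ra and Socs3 results below.

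In RefSeq on build GRCm38.p6, Socs2 lies at chr10:95383903-95417321, Cish at chr9:107296659-107302784 and Socs3 at chr11:117966079-117970336. Bcl6 lies at chr16:23965050-23988866, Socs1 at chr16:10783808-10785536, Ghr at chr15:3317755-3583352 and Il6ra at chr3:89869324-89913196. Promoter windows of 300 bases, from 250 before to 50 after each annotated start, were found for 6 of the 7 genes, 8 windows in all. They were searched for TTCNNNGAA, the palindromic core shared by STAT sites, which reads the same on both strands. Of 32851 windows in the table, 8.3% held at least 1 match, 0.457% at least 2 and 0.0335% at least 3. Cish had 2 matches, Socs3 had 1, and Bcl6 had 1 at its upstream start and 3 at its downstream start. The windows of Ghr (2), Socs1 and Il6ra had none, which says only that these letters are absent there.

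The stretches below show those matches, because they are the windows of the 7 genes that hold the motif. Capitals mark TTCNNNGAA, the strand of the gene is shown 5′ to 3′, and no site was tested for binding. They are, in order, chr9:107296654-107296683 (plus strand, spanning the annotated start), chr16:23981284-23981533, chr16:23988853-23989102 and chr11:117969367-117969616 (minus strand, the 250 bases before each start). The Socs3 stretch and the Bcl6 downstream stretch lie inside the gene spans given above, so their starts are internal ones.
Cish: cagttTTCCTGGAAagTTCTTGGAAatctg
Bcl6 downstream start: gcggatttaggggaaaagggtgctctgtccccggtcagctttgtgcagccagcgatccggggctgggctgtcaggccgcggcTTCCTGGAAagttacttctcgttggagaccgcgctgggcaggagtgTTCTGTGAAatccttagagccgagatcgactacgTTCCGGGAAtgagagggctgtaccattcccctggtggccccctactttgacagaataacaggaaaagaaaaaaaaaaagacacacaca
Bcl6 upstream start: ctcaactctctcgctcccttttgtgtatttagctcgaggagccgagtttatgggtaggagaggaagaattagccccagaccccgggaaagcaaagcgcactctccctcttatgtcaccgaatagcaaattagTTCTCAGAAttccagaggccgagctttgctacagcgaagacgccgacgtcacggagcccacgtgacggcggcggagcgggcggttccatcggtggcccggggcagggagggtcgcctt
Socs3: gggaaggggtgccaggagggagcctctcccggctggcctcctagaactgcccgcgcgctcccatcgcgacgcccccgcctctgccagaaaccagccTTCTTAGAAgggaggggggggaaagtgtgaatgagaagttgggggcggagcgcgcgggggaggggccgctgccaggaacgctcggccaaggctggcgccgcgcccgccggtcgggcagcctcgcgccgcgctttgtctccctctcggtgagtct
The first Cish match is TTCCTGGAA, which begins at the annotated start, and the second begins at base 12. The 9 letters TTCCTGGAA also occur at the downstream Bcl6 start, 168 bases before it.

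Socs2 and Cish, the inhibitors induced by STAT5, went up the same ladder of groups: lowest in FF liver, then Dhep liver, then FF hepatocytes, and highest in Dhep hepatocytes. The Socs2 probe (ILMN_2628178) read 7.60, 7.77 and 7.75 on the 3 FF liver arrays and 9.47, 9.43 and 9.37 in Dhep liver, as log2 signals. In hepatocytes it read 10.09, 10.17 and 10.13 in FF and 10.45, 10.41 and 10.51 in Dhep. No neighbouring groups overlapped, and the steps between means were 1.72, 0.71 and 0.33. The Cish probe (ILMN_2718330) read 6.80, 6.77 and 6.76 in FF liver, near the floor, and 8.32, 8.26 and 8.16 in Dhep liver. It read 8.90, 8.87 and 8.84 in FF hepatocytes and 9.62, 9.65 and 9.74 in Dhep hepatocytes. Its groups did not overlap either, with steps of 1.47, 0.62 and 0.80. An absence of overlap was common between these RNA samples: it held for 53.5% of all probes for isolation in FF, 50.2% for isolation in Dhep, 40.4% for genotype in liver and 58.8% for genotype in hepatocytes. Its share was not counted for groups that differ in both genotype and preparation.

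**Figure D1:**
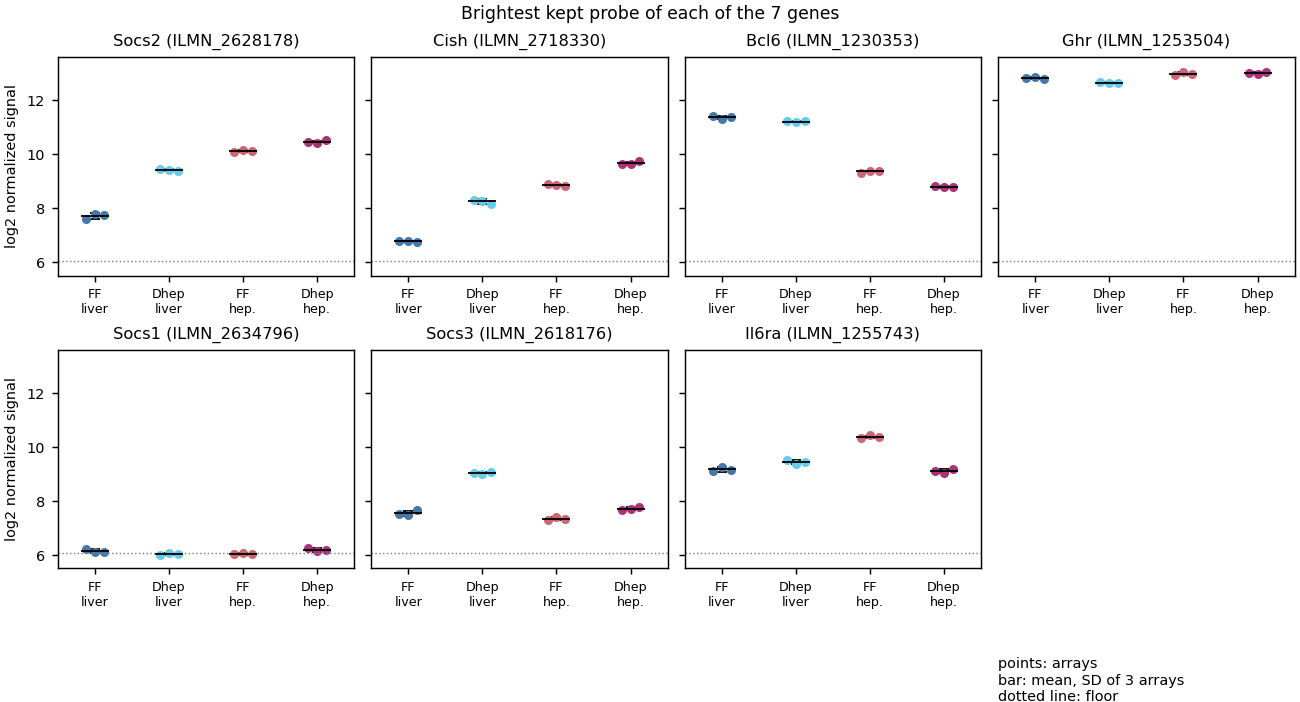
Log2 normalized signal (vertical axis) of the brightest kept probe of each of the 7 genes in the 4 groups (horizontal axis). Points are arrays, bars are the mean and SD of 3 arrays, and the dotted line is the floor at 6.06. Socs2 and Cish climb from FF liver to Dhep hepatocytes, Bcl6 descends, Ghr stays between 12.63 and 13.06, and Socs3 is highest in Dhep liver.

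In liver, Socs2 was 3.29-fold and Cish 2.78-fold higher in Dhep than in FF (log2 differences 1.72 ± 0.06 and 1.47 ± 0.06, SE from limma, n = 3 arrays per group). In hepatocytes the same genotype difference was 0.33 ± 0.06 for Socs2 and 0.80 ± 0.06 for Cish (SE, n = 3 arrays per group). Isolation went with a 5.37-fold higher Socs2 and a 4.28-fold higher Cish in FF, and with 2.05-fold and 2.68-fold higher signals in Dhep. Socs2 in Dhep stood at a log2 difference of 1.04, so close to the 2-fold line that it read 0.9998 after cyclic loess. The genotype differences in hepatocytes depended on the scaling. That of Cish stood at 0.80 after quantile normalization and 1.24 after median scaling. That of Socs2 ran from 0.23 to 0.7 over all background corrections and scalings. Median scaling put the median of all probes at 0.16 in that comparison and at -0.15 in the isolation comparison in FF. Under it the isolation difference in FF was 2.06 for Socs2 and 1.76 for Cish.

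Bcl6, the repressor, ran the opposite way between preparations. Its probe (ILMN_1230353) read 11.43, 11.31 and 11.38 in FF liver, and 11.22, 11.18 and 11.24 in Dhep liver. In hepatocytes it read 9.32, 9.38 and 9.37 in FF, and 8.84, 8.77 and 8.78 in Dhep. The hepatocyte arrays were all far below the liver arrays. None of the 4 groups overlapped, but 40.4% to 58.8% of all probes were likewise without overlap in the 4 comparisons. Bcl6 was 4.04-fold lower in hepatocytes than in liver in FF (-2.01 ± 0.05, SE, n = 3 arrays per group) and 5.33-fold lower in Dhep (-2.41 ± 0.05). The genotype differences were small beside these, -0.16 in liver and -0.56 in hepatocytes, and the second was -0.09 after median scaling.

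The order of Bcl6 over the groups was thus the reverse of that of Socs2 and Cish. The isolation differences and the genotype differences share groups, so they are given side by side and were not correlated with each other. In tissue RNA, fewer cells of a type and less RNA per cell cannot be told apart, and this holds for every level given here. Hepatocyte markers had medians of -0.01 in FF and 0.08 in Dhep for isolation, with 0 of 10 called (0.841% and 0.641% of all 12010 genes were called higher, 0.225% and 0.624% lower). Red cell markers (5 kept of 7) had an isolation median of 0.24 in FF, with 0 of 5 called. In Dhep their median was -1.4, with 3 of 5 called lower. They summed to 4310-4390 in liver of FF and 6330-6780 in liver of Dhep, and to 4060-4140 and 3070-3080 in the hepatocytes of FF and of Dhep. Bile duct markers (3 kept of 7) summed to 515-554, 588-616, 308-331 and 291-298 in the same order. In each genotype 1 of these 3 was called lower with isolation. The 1 B cell marker kept of 6 read 83.6-98.1, 88.2-97.9, 70.5-80.8 and 67.8-69.4. The part of any of these cells in the Bcl6 levels was not tested.

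**Figure D2:**
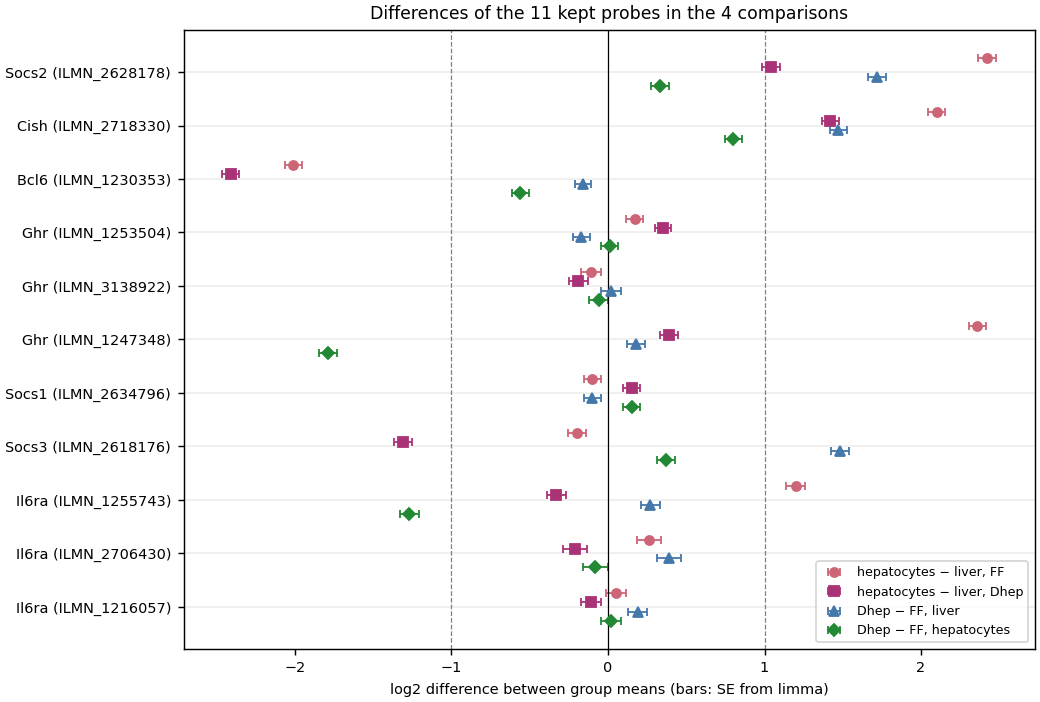
Log2 differences (horizontal axis, with limma SE) of the 11 kept probes (vertical axis) for isolation (hepatocytes minus liver, by genotype) and genotype (Dhep minus FF, by preparation). Dashed lines mark 2-fold differences. Socs2 and Cish lie right of 0 in all 4 comparisons and Bcl6 lies left of 0 in all 4, while the probes of Ghr and of Il6ra part from each other.

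Genes whose signals followed these profiles most closely over the 12 arrays were picked by Pearson's r among 769 probes with group means spanning at least 1 log2 unit. The arrays fall into 4 RNA samples, so r describes those and not 12 independent points. Closest to Socs2 were Cish (r = 0.983), the bile acid synthesis enzyme gene Cyp7a1 (0.967) and Rgs16, a regulator of G-protein signalling (0.967). Cyp7a1 climbed from 10.65 in FF liver to 11.89 in Dhep liver and 13.10 in FF hepatocytes, but stood at 12.82 in Dhep hepatocytes. Closest to Cish were Tmem176a (0.991), Socs2 and Nrep (0.978), with the same order of groups in Tmem176a and Nrep. Closest to Bcl6 were Bbc3, which encodes the apoptosis protein PUMA (0.988), Dclk3 (0.983) and the methyltransferase gene Inmt (0.981). Bbc3 stood at 9.01 in FF liver and 7.80 in Dhep hepatocytes.

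Ghr gave different answers by probe. Its brightest probe (ILMN_1253504) read 12.84, 12.85 and 12.78 in liver of FF and 12.68, 12.65 and 12.63 in liver of Dhep. Hepatocytes read 12.93, 13.06 and 12.99 in FF and 13.00, 12.99 and 13.03 in Dhep. All of its differences lay between -0.17 and 0.35, and the FF and Dhep hepatocyte arrays overlapped. A second RefSeq-based probe (ILMN_3138922) had means of 11.09, 11.11, 10.97 and 10.92 in the same order of groups, with differences of -0.19 to 0.02. The signs of several of these small differences turned with the scaling, so no direction is given for either probe.

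The dimmest Ghr probe (ILMN_1247348), assigned to a cDNA outside the curated RefSeq mRNAs, stood apart in FF hepatocytes. It read 10.03, 10.02 and 10.08 there, against 8.27, 8.21 and 8.29 in Dhep hepatocytes. The livers read 7.76, 7.67 and 7.62 in FF and 7.79, 7.87 and 7.93 in Dhep. That is 5.14-fold above FF liver (2.36 ± 0.06, SE, n = 3 arrays per group) and 3.45-fold above Dhep hepatocytes. The place of each probe in the transcripts was not analysed here, so which Ghr transcripts the 3 probes read is not known.

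Il6ra showed the same split. Its brightest probe (ILMN_1255743) read 10.34, 10.43 and 10.38 in FF hepatocytes, above 9.11, 9.05 and 9.19 in Dhep hepatocytes. The livers read 9.11, 9.28 and 9.15 in FF and 9.52, 9.38 and 9.44 in Dhep. It was 2.30-fold higher in FF hepatocytes than in FF liver (1.20 ± 0.06, SE, n = 3 arrays per group) and in hepatocytes it was 2.41-fold lower in Dhep (-1.27 ± 0.06). Both differences fell under the 2-fold line after median scaling, at 0.79 and -0.84. The other probes did not show the peak: ILMN_2706430 had group means of 7.70, 8.10, 7.96 and 7.88, and ILMN_1216057 had 7.41, 7.60, 7.46 and 7.49, in the order liver of FF and Dhep, then hepatocytes of FF and Dhep.

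**Figure D3:**
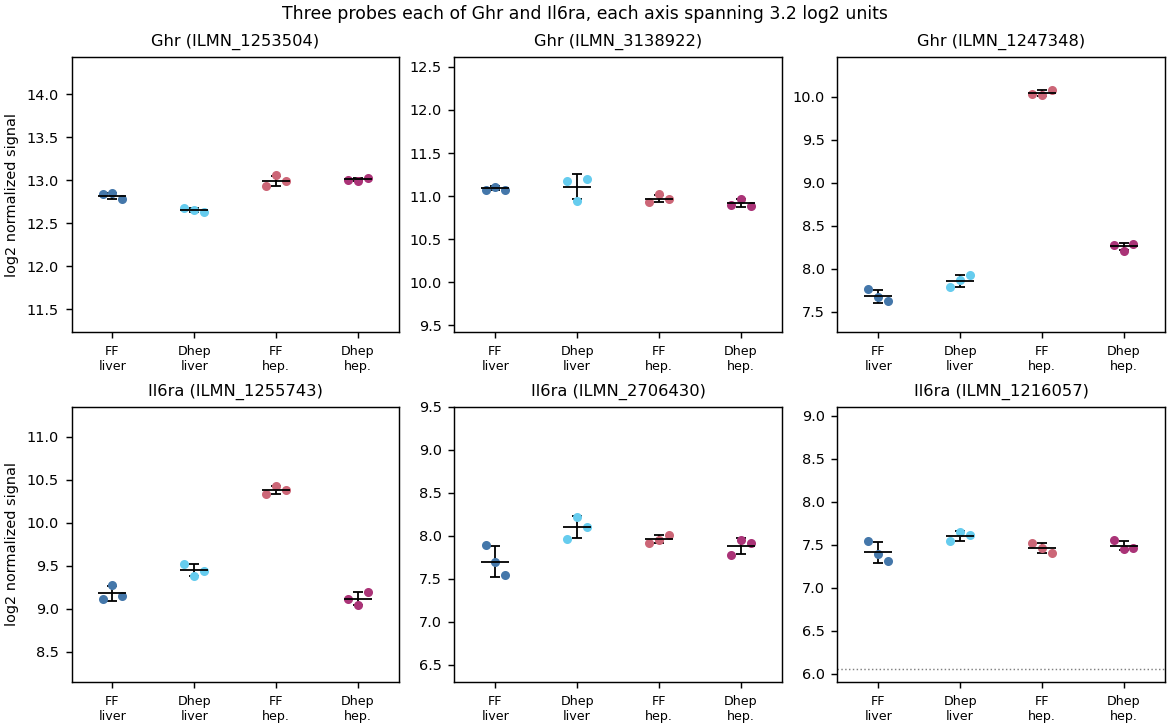
Log2 normalized signal (vertical axes, each spanning 3.2 log2 units) of the 3 Ghr probes and the 3 Il6ra probes in the 4 groups. Points are arrays and bars are mean and SD of 3 arrays. Within each gene 1 probe peaks in FF hepatocytes (10.04 for Ghr ILMN_1247348, 10.38 for Il6ra ILMN_1255743) and the other 2 do not.

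The Il6ra peak was shared most closely by Gin1 (r = 0.995 over 12 arrays), Ndufaf4 (0.993) and 6030458C11Rik (0.990), each highest in FF hepatocytes. Ndufaf4, an assembly factor of respiratory complex I, read 9.78 there against 7.98 to 8.43 in the other groups. Ifngr2, a chain of the interferon-γ receptor, also had a probe that was high in FF hepatocytes alone (9.89, against 7.54 to 7.90 elsewhere). It rose 5.12-fold with isolation in FF (2.36 ± 0.07, adjusted p from limma = 2.06e-18, SE over n = 3 arrays per group), while the lowest of its probes stood at 0.13. The FF hepatocyte arrays were also the dimmest of the series before normalization, and the part of this in the peaks was not tested. Endothelial markers summed to 6920-7150 and 8060-8330 in the livers of FF and Dhep, and to 8550-8890 and 4550-4700 in their hepatocytes. Stellate cell and fibroblast markers summed to 10200-10500 and 10400-10700 in the livers, and to 9320-9600 and 4300-4500 in the hepatocytes. On each list 4 of 10 genes fell in Dhep against FF hepatocytes and 0 rose, where 1.22% of all genes were called lower. For the interaction 6 endothelial and 5 stellate genes of 10 were called lower, where 2.53% of all probes were called in either direction. After median scaling 2 of 10 genes on each list were called lower in each of these 2 comparisons. Over all probes, 76 of 22851 were then called lower for genotype in hepatocytes and 119 for the interaction. Their part in the lower Ghr (ILMN_1247348) and Il6ra (ILMN_1255743) signals of Dhep hepatocytes was not tested.

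Socs3, the inhibitor induced by STAT3, was highest in Dhep liver. Its probe (ILMN_2618176) read 9.03, 8.99 and 9.07 in Dhep liver, against 7.51, 7.49 and 7.65 in FF liver. In hepatocytes it read 7.31, 7.40 and 7.34 in FF, and 7.68, 7.70 and 7.78 in Dhep. Only Dhep liver stood well above the rest. No neighbouring groups overlapped, but neither did 53.5% of all probes for isolation in FF and 50.2% for isolation in Dhep. Socs3 was 2.79-fold higher in Dhep than in FF liver (1.48 ± 0.06, SE, n = 3 arrays per group) and 2.47-fold lower in Dhep hepatocytes than in Dhep liver (-1.31 ± 0.06). The genotype difference in hepatocytes was 0.37 ± 0.06, and the isolation difference in FF was -0.20 ± 0.06. Over all background corrections and scalings they ran from 0.27 to 0.75 and from -0.5 to -0.06.

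The genes closest to Socs3 over the arrays were the chemokine gene Ccl5 (r = 0.981), the forkhead factor gene Foxq1 (0.976) and a probe of Glud1 (0.976), all highest in Dhep liver. Markers of other cells moved in Dhep liver as well. On the list for Kupffer cells and other macrophages, 7 of 11 measured genes rose there, and the list's summed signal was 5740-5840 in FF liver and 12400-12700 in Dhep liver. Over all genes 0.508% were called higher in that comparison. In hepatocytes that sum was 5400-5430 in FF and 18900-19500 in Dhep. There 8 of the 11 were called higher in Dhep and 1 lower, against 1.5% and 1.22% of all genes. For isolation in Dhep 2 of the 11 were called higher and 1 lower, against 0.641% and 0.624% of all genes. Socs2 and Cish, like Socs3, were higher in Dhep than in FF liver. Neutrophil markers (6 kept of 8, Ngp without a kept probe) summed to 420-446 and 574-591 in the livers of FF and Dhep and to 414-447 and 578-588 in their hepatocytes. The T and NK cell list (6 kept of 12, with no kept probe for Cd4, Cd8a, Gzmb and Ncr1) summed to 773-816, 1140-1250, 2360-2850 and 791-812 in the same order. Its peak in FF hepatocytes was carried by Prf1, the perforin gene (11.10 on the log2 scale, against 8.46 to 8.97 elsewhere). By gene, 6 of the 6 stood higher in Dhep than in FF liver (median 0.38, 1 called), and 0 of 6 stood higher in hepatocytes than in liver in Dhep (median -0.40, 1 called). Ccl5, the closest gene to Socs3, is on this list. The red cell sums given above were highest in Dhep liver. The part of any of these cells in the levels of Socs3, Socs2 and Cish was not tested.

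Socs1, the inhibitor induced by interferon-γ, was at the floor. Its probe (ILMN_2634796) had means of 6.14 and 6.04 in the livers of FF and Dhep, and of 6.04 and 6.19 in their hepatocytes. All 3 arrays exceeded the floor in FF liver and in Dhep hepatocytes, and 1 of 3 did in the other 2 groups. No fold is given for a signal this close to the floor. Genes of interferon-γ signalling, by contrast, differed widely. In Dhep hepatocytes 8 of 11 measured genes rose and 1 fell against FF hepatocytes, with a median of 2.09, where 1.5% of all genes were called higher and 1.22% lower. Gbp3 (3.10 ± 0.07, SE, limma adjusted p = 2.40e-21) and Igtp (2.94 ± 0.06, adjusted p = 2.16e-22), interferon-inducible GTPase genes, were examples. Both p-values rest on repeat arrays of 1 RNA sample per group, for genes on a list chosen with earlier results known. In liver 5 of 11 rose and 0 fell (median 0.89), or 3 of 11 after median scaling, against 0.508% and 0.0999% of all genes.

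A probe was called when its limma p, adjusted by Benjamini-Hochberg over 22859 kept probes, was under 0.05 and its absolute log2 difference at least 1. By this rule 5 of the 11 probes of the 7 genes passed for isolation in FF, where 1.44% of all probes did. For isolation in Dhep 4 passed (0.967% of all probes), for genotype in liver 3 (0.595%) and for genotype in hepatocytes 2 (2.45%). Because the genes were picked from these same differences, nothing is read from these shares. For the interaction, the isolation difference in Dhep minus that in FF, 4 passed (2.53%).

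When each RNA sample counted once, as the mean of its 3 arrays, no probe of 22859 was called by limma for preparation or genotype. At an unadjusted p under 0.05 there were 1691 probes for preparation and 1126 for genotype. In that model, with 1 residual degree of freedom, the preparation difference over both genotypes was 1.73 ± 0.39 for Socs2, 1.76 ± 0.21 for Cish and -2.21 ± 0.15 for Bcl6 (SE, n = 4 RNA samples). The genotype difference over both preparations was 1.02 ± 0.39 for Socs2, 1.14 ± 0.21 for Cish and 0.93 ± 0.32 for Socs3. Calls from the single arrays therefore speak of these RNA samples and not of the genotypes or preparations at large.

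Upstream of Socs2 and Cish, the genes of growth hormone receptor signalling gave no call in the main setting. Of 12 measured genes of the route, 0 rose and 0 fell in all 4 comparisons by limma, with medians of -0.23 and 0.03 for isolation in FF and Dhep and -0.02 and 0.28 for genotype in liver and hepatocytes. After median scaling 1 of the 12 was called for genotype in hepatocytes, and the medians for isolation in FF and genotype in hepatocytes were -0.63 and 0.67. For the interaction 0 were called, with 11 of 12 above 0 and a median of 0.39. After median scaling 5 of 12 were called higher for the interaction (median 0.93), as were 1686 of 22851 probes. Jak2, the receptor's kinase, stood between 7.32 and 7.85 on the log2 scale in the 4 groups, and Stat5a between 7.09 and 7.63. Stat5b had no kept probe, and Prlr and Lyn were not analysed here.

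Among 8 other genes regulated by STAT5, none was called for isolation or for genotype in liver. Igf1, the main hormone made by liver under growth hormone, stood at 12.94 and 12.77 in the livers of FF and Dhep, and at 13.41 and 12.50 in their hepatocytes. Its genotype difference in hepatocytes was -0.91 ± 0.06 (SE, n = 3 arrays per group) and did not pass the fold threshold. Its other kept probe stood at -0.54 there, and for isolation in Dhep the 2 probes stood at -0.26 and 0.31. Igfals, which encodes the subunit that holds IGF1 in circulation, had differences of -0.18 to 0.35. Ccnd1, the G1 cyclin gene, rose by 1.28 ± 0.06 in Dhep hepatocytes (limma adjusted p = 2.18e-14), the only call in this list. The lowest of its 3 kept probes stood at 0.85, under the fold threshold. Over all genes 1.5% were called higher in that comparison. Myc had no kept probe and Onecut1 was not analysed here.

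Many sex-biased liver genes depend on the pattern of growth hormone pulses. Of 19 measured male-biased genes, 0 were called for isolation in either genotype or for genotype in liver. In Dhep hepatocytes 1 fell, where 1.22% of all genes were called lower. That gene was Susd4 (-1.14 ± 0.06, SE, limma adjusted p = 4.76e-14, and -0.67 after median scaling). The list's medians were 0.28 for isolation in FF, 0.03 for isolation in Dhep, -0.02 for genotype in liver and -0.29 for genotype in hepatocytes. Hsd3b5, a steroid dehydrogenase gene, stood at -0.99 in Dhep against FF hepatocytes, just short of the fold threshold.

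Of 17 measured female-biased genes, none was called for isolation in FF and 1 fell in each genotype comparison. Over all genes 0.0999% were called lower for genotype in liver and 1.22% for genotype in hepatocytes. Cyp4a14 fell by 1.02 in Dhep liver (adjusted p = 2.11e-12), and stood at -0.99 to -0.9994 when FF liver array 1, FF liver array 2 or Dhep liver array 3 was left out. Hamp2, a hepcidin gene, fell by 1.98 in Dhep against FF hepatocytes (± 0.06, SE, adjusted p = 6.89e-19) and by 1.95 in Dhep hepatocytes against Dhep liver. Cyp17a1, a steroid hydroxylase gene, rose by 1.43 with isolation in Dhep. In that comparison 0.641% of all genes were called higher and 0.624% lower. In all, 9 further genes of this list had no probe above the floor on every array of any group.

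**Figure D4:**
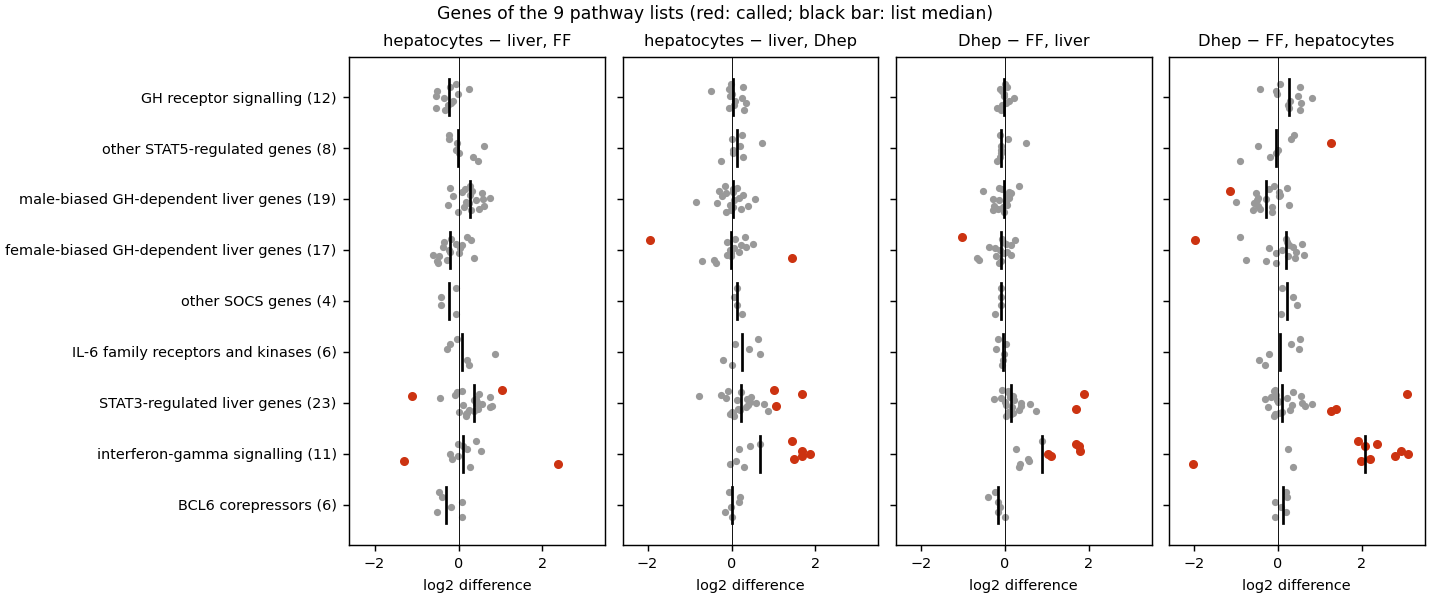
Log2 differences (horizontal axes) of the measured genes of 9 pathway lists (vertical axis, number of genes in brackets) in the 4 comparisons. Red points were called, grey points were not, and black bars are list medians. The growth hormone receptor list has no red point in any panel, and the interferon-γ list has 8 higher and 1 lower in Dhep against FF hepatocytes.

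Beside Socs3, the receptors and kinases of the interleukin-6 family gave 0 calls among 6 measured genes in all 4 comparisons by limma, with medians of 0.08, 0.25, -0.05 and 0.06. With an offset of 16, and in the authors' normalized values, 1 of the 6 was called higher for isolation in FF. After median scaling the medians were -0.33, 0.43, -0.16 and 0.49. For the interaction 0 of the 6 were called, but 2 were called higher after median scaling, as were 1686 of 22851 probes. Il6st, the shared signal chain gp130, stood between 8.20 and 8.50, and Stat3 between 10.04 and 10.68 on the log2 scale. Of 23 measured liver genes regulated by STAT3, 2 rose and 0 fell in Dhep liver, with a median of 0.16. They were the siderophore-binding protein gene Lcn2 (1.89 ± 0.06, adjusted p from limma = 5.88e-17) and serum amyloid Saa3 (1.70 ± 0.06). In Dhep hepatocytes 3 rose and 0 fell (median 0.09), namely Lcn2 (3.07), Saa3 (1.38) and Saa1 (1.26). The lowest Saa1 probe stood at 0.63 there. Over all genes 0.508% were called higher and 0.0999% lower for genotype in liver, and 1.5% and 1.22% for genotype in hepatocytes.

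With isolation, 1 STAT3-regulated gene rose and 1 fell in FF, and 3 rose in Dhep. Over all genes 0.841% were called higher and 0.225% lower in FF, and 0.641% and 0.624% in Dhep. Nnmt, the nicotinamide N-methyltransferase gene, rose in both (1.03 and 1.02), but stood at 0.79 in FF after median scaling and at 0.9946 to 0.998 when FF hepatocyte array 2, Dhep liver array 3 or Dhep hepatocyte array 1 was left out. Junb, an AP-1 subunit gene, fell by 1.12 in FF. Lcn2 (1.68) and Lbp, the lipopolysaccharide-binding protein gene (1.07), rose in Dhep.

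The remaining SOCS genes and the BCL6 partners gave no call in the main setting. Socs4, Socs5, Socs6 and Socs7 were all measured and none was called by limma, with list medians of -0.23, 0.13, -0.09 and 0.23 in the 4 comparisons. Their differences shared a sign within each comparison, with 0, 4, 0 and 4 of 4 above 0. After median scaling the medians were -0.51, 0.24, -0.16 and 0.61. Of 6 measured genes on the BCL6 list, corepressor subunits and the relative Bcl6b, none was called by limma. The medians were -0.29, 0.00, -0.16 and 0.13, and -0.71, 0.13, -0.26 and 0.50 after median scaling. For the interaction none was called, but 1 of the 6 was called higher after median scaling, as were 1686 of 22851 probes. Over all 12010 genes the medians were -0.03, 0.01, -0.03 and -0.01, in the order isolation in FF, isolation in Dhep, genotype in liver and genotype in hepatocytes.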

How the data were processed

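The starting values were the deposited raw bead intensity of every probe, on a linear scale and not scaled between arrays. BeadStudio is named in the submitters' processing notes. The authors also deposited normalized intensity values, with array medians of 47.1 to 47.3, by a procedure the labels do not name. Raw columns were assigned by the number in each sample's description, and all 12 correlated best with their own array in the second table. Intensities were corrected with normexp (offset 50, no negative controls), then quantile normalized on the log2 scale (limma 3.58.1, R 4.3.3). Probes were kept above the median of all probe means on every array of at least 1 group (22859, 50.5%). Of all probes 34885 carried 1 symbol, 18 several and 10378 none. A model of 4 group means was fitted to all 12 arrays (8 residual degrees of freedom, 14.8 from the prior), with Benjamini-Hochberg adjustment over the kept probes. The model was tested on simulated data with planted differences and independent noise of the spread between arrays. That test cannot speak to the spread between mice. The precision is limited by the number of arrays and by 1 mouse per group.

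The 7 genes, the 9 pathway lists (132 genes, 106 measured) and the 9 marker lists were chosen with earlier results of these data known. Lists used each gene's brightest kept probe. Named were all probes of the 7 genes, the 3 genes of closest profile to each member spanning at least 1 log2 unit, up to 4 called genes per pathway list and comparison, and Igf1, Igfals, Jak2, Stat5a, Stat5b, Il6st, Stat3 and Alb; Socs and BCL6 list members, and list genes close to the threshold, were named after their values were seen. Promoters are from RefSeq, GRCm38.p6. Alternatives were other background corrections, the authors' table, median scaling, cyclic loess, other filters, a trended robust prior, a replicate block, a fit to the compared groups alone, calls without a fold threshold, 4 RNA means and leaving out each array. Figures used matplotlib 3.10.9 under Python 3.11.15.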

Additional observations from a re-analysis of the deposited data

Results flagged for a closer look

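For 4 of the 7 genes the isolation difference in Dhep minus that in FF (limma's interaction term, n = 3 arrays per group) was past the threshold, as it was for 2.53% of all probes. These genes were picked from such differences, so their values are a description. The interaction was -1.39 ± 0.08 (SE) for Socs2, whose isolation difference was 2.42 in FF and 1.04 in Dhep. It was -1.11 ± 0.08 for Socs3, with isolation differences of -0.20 in FF and -1.31 in Dhep. It was -1.97 for the Ghr probe ILMN_1247348 and -1.54 for the Il6ra probe ILMN_1255743, both high in FF hepatocytes alone. Under median scaling the values were -0.90 for Socs2, -0.63 for Socs3, -1.43 for Ghr and -0.93 for Il6ra, so only that of Ghr stayed past the fold threshold. Cish stood at -0.68 and Bcl6 at -0.40, the latter 0.28 after median scaling.

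The same term was past the threshold for 11 genes of the pathway lists, 7 of them on the interferon-γ list, and 8 are given here. It was -2.23 for Hamp2, -2.40 for Ifngr2 (0.19 on its highest probe) and -1.04 for Hsd3b5. It was 2.07 for Gbp3, 1.69 for Gbp2 (0.36 on its lowest probe), 1.18 for Lcn2 and 1.06 for Cyp17a1. It was 1.64 for Ciita, whose FF means of 5.98 in liver and 5.82 in hepatocytes lay under the floor of 6.06, so that its isolation difference in FF is not a measured change. Of these, Hsd3b5 stood at -0.73 after median scaling, and at -0.9944 without Dhep hepatocyte array 1. Cyp17a1 stood at 0.99 with cyclic loess and at 0.97 without Dhep liver array 3. Lcn2 stood at 0.97 with cyclic loess and 0.9991 in the authors' table.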

How the results depend on the processing

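All differences of the 7 genes past the threshold kept their direction under every alternative run, and all 18 kept their call when any single array was left out. The replicate number is only a number: deviations of same-numbered arrays correlated at -0.05 to 0.07, 6 of 12 arrays correlated best with their own number, and with a replicate block the counts were unchanged, at 286 probes higher and 44 lower for isolation in FF. Cyclic loess put Socs2 at 0.9998 for isolation in Dhep. Median scaling put the interaction at -0.90 for Socs2, -0.63 for Socs3 and -0.93 for Il6ra, and Il6ra at 0.79 for isolation in FF and -0.84 for genotype in hepatocytes. With 4 RNA means 0 probes were called either way for preparation or genotype. The common preparation differences were then 1.73 for Socs2, 1.76 for Cish, -2.21 for Bcl6, 1.38 for Ghr (ILMN_1247348), -0.75 for Socs3 and 0.44 for Il6ra (ILMN_1255743), and the genotype differences 1.02, 1.14, -0.36, -0.80, 0.93 and -0.50. No interaction can be fitted to 4 means. The causes of these losses were not tested.

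Counts over all probes moved more. An offset of 16 gave 514 higher and 89 lower for isolation in FF (286 and 44 in the main setting), 202 lower for isolation in Dhep (108), 182 higher for genotype in liver (115), 497 higher and 553 lower for genotype in hepatocytes (278 and 283), and 362 and 754 for the interaction (171 and 408). Median scaling gave 119 and 458 for isolation in FF, 830 and 76 for genotype in hepatocytes, and 1686 and 119 for the interaction, whose median over all probes moved to 0.22. Without a fold threshold the counts were 4778 and 6141, 4883 and 4682, 2990 and 3361, 6322 and 5990, and 5467 and 4857, for isolation in FF and Dhep, genotype in liver and hepatocytes, and the interaction.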
